A study of Homo sapiens with 6 samples.

Results

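The TBC-domain RAB GTPase-activating family was taken as the protein-coding rows of the count table with a TBC1D symbol, together with TBCK, SGSM1 to SGSM3, EVI5, EVI5L, RABGAP1 and RABGAP1L. This rule used names and no measured value, and it found 49 of the 30327 genes in the table. Of these, 36 had enough reads to be tested, among 15801 genes tested in all, and the other 13 had between 1 and 39 reads over the 6 libraries. Poly(A) RNA was sequenced from SK-BR-3, an established human breast cancer cell line with high HER2 (ERBB2), in 3 libraries after transfection with a control siRNA (si_NC) and 3 after transfection with an siRNA targeting GRB2 (si_GRB2). GRB2 is the adaptor protein that couples receptor tyrosine kinases to RAS signalling. The methods give a single siRNA duplex for the knockdown, so an effect of GRB2 loss and an effect of that duplex on other transcripts cannot be told apart. The groups follow the sample descriptions, whereas the titles and the genotype field of the si_GRB2 libraries name overexpression. No label says that the libraries came from separate cultures, so the p-values measure only the spread between these libraries.

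RAB proteins are small GTPases that mark intracellular membranes and recruit the machinery for vesicle transport, docking and fusion while bound to GTP. GTPase-activating proteins (GAPs) of the TBC type supply residues that speed GTP hydrolysis and so switch their RAB off, and guanine nucleotide exchange factors (GEFs) switch it on. In epithelial cells these pathways carry receptors through early, recycling and late endosomes and also serve autophagy and cilium formation, although several TBC proteins lack the catalytic residues and some have no settled RAB substrate.

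GRB2 was lower in all libraries labelled si_GRB2, with 123.9, 129.5 and 125.7 CPM (reads relative to the library total, scaled with TMM factors) in si_NC and 27.8, 28.1 and 29.6 CPM in si_GRB2. The log2 fold change, given throughout as si_GRB2 relative to si_NC, was -2.15 (SE 0.04, adjusted p = 3.87e-15, edgeR's quasi-likelihood test), in the direction of the descriptions and against the titles. Between 24810378 and 28532480 reads per library fell on genes. ERBB2 stood at 3415 to 4229 CPM, and 8 of 9 epithelial and SK-BR-3 markers averaged at least 10 CPM, while CDH1 was nearly absent at 0.0357 to 0.107 CPM. The summed level of those 9 markers was 19957 to 20403 CPM in si_NC and 16729 to 17392 CPM in si_GRB2. ERBB2 went against this sum, from a mean of 3499 to 4140 CPM (log2 fold change 0.24, adjusted p = 1.14e-06, edgeR). TFAP2C stayed near 0 (-0.02). KRT18 (-0.55), EPCAM (-0.55), KRT8 (-0.41), KRT7 (-0.26), GRB7 (-0.23) and KRT19 (-0.20) were lower. The 3 blood markers summed to at most 1.65 CPM, the 2 endothelial markers to at most 1.75 CPM and the 2 hormone receptors to at most 1.51 CPM in any library. The 3 stromal markers summed to 5.77 to 7.20 CPM in si_NC and to 4.81 to 5.89 CPM in si_GRB2, and the 2 basal keratins, nearly all of it KRT5, to 16.9 to 17.7 CPM and 8.31 to 9.03 CPM. The part of these shifts in the results below was not tested.

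In the whole family, 14 of the 36 tested members passed an adjusted p of 0.05 (38.9%), where 30.6% of all genes tested and 35.8% of the protein-coding genes tested did. TBC1D9, TBC1D8B, EVI5L, EVI5, TBC1D10B, TBC1D16, TBC1D17, TBC1D20 and TBC1D9B were higher in si_GRB2, which is 9 of 36 members against a background of 15.2% (17.9% of protein-coding genes). TBC1D2B, TBC1D1, TBC1D5, TBC1D10A and TBC1D8 were lower, which is 5 members (13.9%) against a background of 15.5% (18.0% of protein-coding genes). The median log2 fold change of the 36 was 0.05, beside 0.00 over all genes tested, and the median absolute change was 0.16 beside 0.14. In all, 21 members lay above 0 (background 50.4%) and 15 below. The CPM of the groups did not overlap for 18 of the 36 members, with a background of 42.3% (6090 of 12779 among protein-coding genes). These 18 members included all 14 that passed. The number of lower members was 2 without si_NC replicate 1 or si_GRB2 replicate 3, and 3 without si_GRB2 replicate 1 or 2. In bulk RNA, fewer cells of a type and less RNA per cell cannot be told apart.

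Only TBC1D9 and TBC1D2B also met the study's fold limit of 1.5 with an adjusted p under 0.01 and so counted as differentially expressed genes (DEGs), in opposite directions. Over all genes tested, 2.52% were DEGs, 0.829% higher and 1.69% lower. Both lay close to the fold limit. No member was a DEG without si_NC replicate 3, where TBC1D9 had a log2 fold change of 0.56 and TBC1D2B of -0.57, and TBC1D9 alone was a DEG without si_GRB2 replicate 3, where TBC1D2B stood at -0.58.

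**Figure D1:**
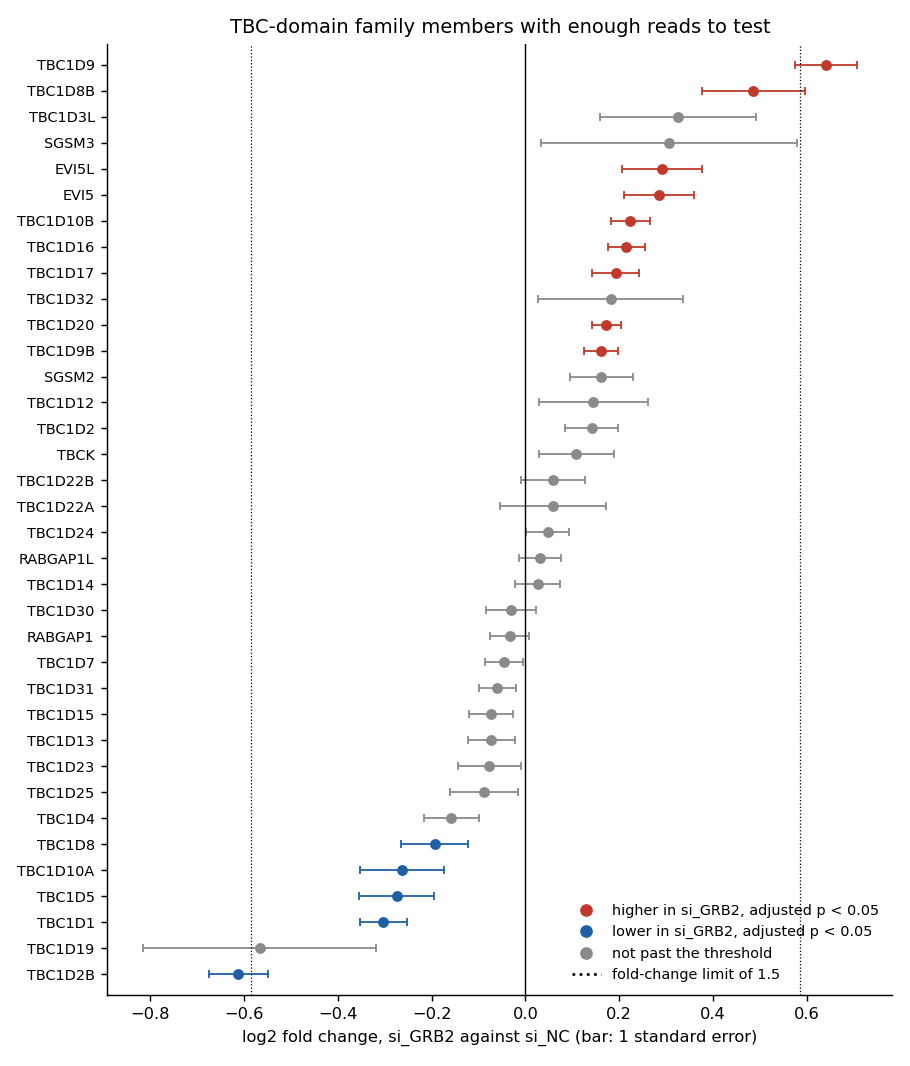
Log2 fold change (si_GRB2 relative to si_NC, x axis) of the 36 tested members with bars of 1 SE, from TBC1D9 at 0.64 to TBC1D2B at -0.61. Colour marks the 9 members that passed as higher, the 5 that passed as lower and the 22 that did not pass.

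TBC1D9 has 3 paralogs, TBC1D9B, TBC1D8 and TBC1D8B, which together form a subfamily with paired GRAM domains ahead of the TBC domain. All 4 passed the test, 3 as higher and 1 as lower, where 15.2% of all genes tested were higher and 15.5% lower. TBC1D9 (ENSG00000109436.8, chromosome 4, 140620782 to 140756385, minus strand, GRCh38) had 26.1, 24.6 and 21.6 CPM in si_NC and 35.0, 37.7 and 39.9 CPM in si_GRB2. Every si_GRB2 library was above every si_NC library, and the gap between the groups was wider than the spread within either. The means were 24.1 ± 2.27 and 37.5 ± 2.49 CPM (SD, n = 3 libraries each), a 1.56-fold rise with a log2 fold change of 0.64 (SE 0.07, adjusted p = 1.68e-06, edgeR). The study singled out this gene on these same libraries, so its test is not independent evidence. Among the 36 members it had the highest log2 fold change, and 271 of the 15801 genes tested had a higher one. Its counts were 606 to 731 reads per si_NC library and 880 to 1035 per si_GRB2 library. They came from a gene model of 5851 exonic bases that shares none with another gene of the count table.

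TBC1D9B is the close homolog of TBC1D9 and is known as a GAP for RAB11A, the RAB of recycling endosomes. It had 104.0, 105.4 and 110.7 CPM in si_NC and 121.2, 122.2 and 114.6 CPM in si_GRB2. The groups did not overlap, but si_NC replicate 3 and si_GRB2 replicate 3 lay near each other, and the log2 fold change was 0.16 (SE 0.04, adjusted p = 0.00278, edgeR). TBC1D9B shares 108 exonic bases with MRNIP on the same strand, a gene with 43.6% as many reads, and how reads on shared bases were counted is not given in the sources used here.

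TBC1D8B, which binds RAB11 and is a gene of inherited nephrotic syndrome, had 6.45, 5.41 and 6.13 CPM in si_NC and 7.67, 8.30 and 9.28 CPM in si_GRB2. All si_GRB2 values were above all si_NC values, with a log2 fold change of 0.49 (SE 0.11, adjusted p = 0.00274, edgeR), the second highest of the family. TBC1D8 had 15.5, 14.6 and 15.4 CPM in si_NC and 12.3, 13.8 and 13.7 CPM in si_GRB2. It was the only one of the 4 that was lower, by a small margin, with a log2 fold change of -0.19 (SE 0.07, adjusted p = 0.0480, edgeR). This call was lost when any 1 of the 6 libraries was left out, with log2 fold changes between -0.23 and -0.14. TBC1D8 also shares 40 exonic bases with RPL31 on the opposite strand. RPL31 had 135631 reads beside 2272 on TBC1D8 and was lower too (log2 fold change -0.12, adjusted p = 0.00249, edgeR). The part of shared reads in the TBC1D8 call was not tested. The summed CPM of the 4 genes went from 152 ± 1.88 to 179 ± 3.04 (SD, n = 3 each), 17.5% higher. This sum includes TBC1D9, whose mean went from 24.1 to 37.5 CPM, and TBC1D8, which was lower.

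**Figure D2:**
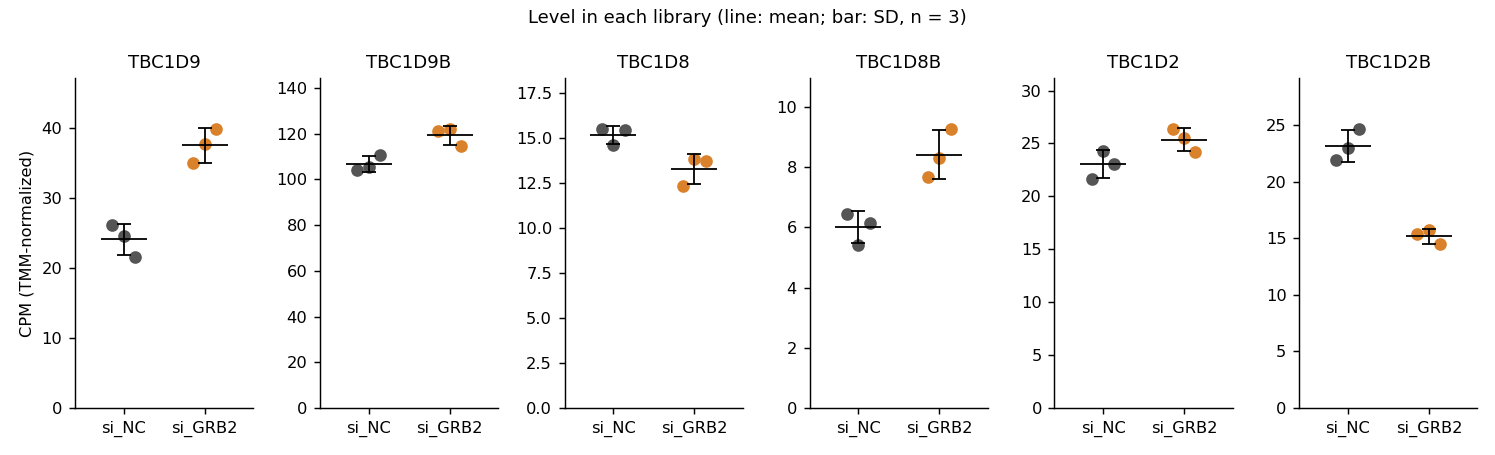
CPM of each library for TBC1D9, TBC1D9B, TBC1D8, TBC1D8B, TBC1D2 and TBC1D2B, with si_NC and si_GRB2 side by side in each panel and lines at the group means. TBC1D9 moved from 24.1 to 37.5 CPM and TBC1D2B had 21.9 to 24.7 CPM in si_NC and 14.5 to 15.7 CPM in si_GRB2, while TBC1D2 overlapped between groups.

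A ratio of 2 genes within a library does not depend on the scaling between libraries. The log2 ratio of TBC1D9 to TBC1D8 was 0.75, 0.75 and 0.49 in si_NC and 1.51, 1.45 and 1.54 in si_GRB2, a shift of 0.84 with no overlap. The log2 ratio to TBC1D9B was -1.996, -2.10 and -2.36 in si_NC and -1.79, -1.70 and -1.52 in si_GRB2, a shift of 0.48, again with no overlap. Both shifts gave a two-sided exact permutation p of 0.1 (0.15 adjusted over the 3 ratios tested), which is the smallest that 3 libraries against 3 allow, so the design cannot reach 0.05 here. Because TBC1D9 was singled out on these same libraries, its ratios are not independent evidence either. Against TBC1D8B the ratio was 2.01, 2.18 and 1.82 in si_NC and 2.19, 2.18 and 2.11 in si_GRB2. These ranges overlapped, and the shift of 0.15 had an exact permutation p of 0.2 (0.2 adjusted). A difference between the rises of TBC1D9 and TBC1D8B was not detectable with 3 libraries a group.

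The ratios of other paralog pairs were added after the gene values were seen and carry no test. TBC1D2 to TBC1D2B moved by 0.75, from -0.02, 0.08 and -0.10 in si_NC to 0.78, 0.70 and 0.74 in si_GRB2. This was the widest separation outside the TBC1D9 pairs. TBC1D8B to TBC1D8 shifted by 0.68, TBC1D10B to TBC1D10A by 0.48, TBC1D17 to TBC1D15 by 0.27, TBC1D4 to TBC1D1 by 0.14 and RABGAP1 to RABGAP1L by -0.07, all without overlap. EVI5 to EVI5L (shift -0.00), TBC1D22B to TBC1D22A (shift 0.00) and TBC1D14 to TBC1D12 (shift -0.12) overlapped between groups.

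**Figure D3:**
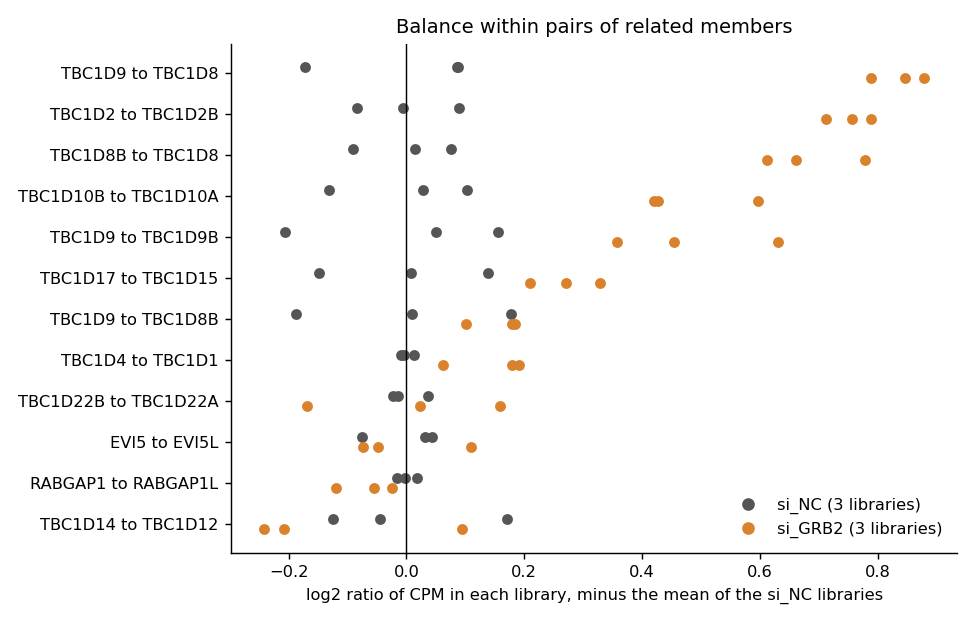
Log2 ratio of CPM in each library for 12 paralog pairs, with the si_NC mean of the pair set to 0. The si_GRB2 points lie furthest from the si_NC points for TBC1D9 to TBC1D8 (shift 0.84) and TBC1D2 to TBC1D2B (shift 0.75), and are mixed with them for EVI5 to EVI5L.

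The start regions of TBC1D8B and TBC1D2B are shown because these 2 genes had the largest rise and the largest fall among the 29 tested members with an entry in the RefSeq promoter table (GRCh38.p14). The table has no entry for TBC1D9. Each window runs from 250 bases before to 50 bases after the gene's start. Capitals mark matches to the GC box (GGGCGG), the CCAAT box (CCAAT), AP-1 (TGANTCA), E-box (CACGTG) or ETS (CCGGAAG) letters on either strand. The TBC1D8B window is chrX:106802423-106802722 on the plus strand and the TBC1D2B window is chr15:78077662-78077961 on the minus strand.
TBC1D8B: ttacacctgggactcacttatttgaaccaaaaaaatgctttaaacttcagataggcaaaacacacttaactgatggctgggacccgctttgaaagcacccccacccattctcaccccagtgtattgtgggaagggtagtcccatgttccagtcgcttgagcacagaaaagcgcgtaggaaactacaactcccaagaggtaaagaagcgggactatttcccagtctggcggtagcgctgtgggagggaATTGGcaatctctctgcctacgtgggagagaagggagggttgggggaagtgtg
TBC1D2B: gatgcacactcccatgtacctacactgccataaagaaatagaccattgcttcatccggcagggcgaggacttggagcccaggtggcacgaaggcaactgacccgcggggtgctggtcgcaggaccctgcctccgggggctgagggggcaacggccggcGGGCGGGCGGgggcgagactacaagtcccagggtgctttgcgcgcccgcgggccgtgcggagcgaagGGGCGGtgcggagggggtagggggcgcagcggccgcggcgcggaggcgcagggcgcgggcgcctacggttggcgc
The TBC1D8B window was 50.7% G and C and held 1 CCAAT box, read here on the reverse strand. The TBC1D2B window was 72.0% G and C and held 3 GC boxes, 2 of which overlap each other. Of the 29 member promoters, 65.5% held a GC box, 27.6% a CCAAT box, 3.45% an AP-1 match, 20.7% an E-box and 6.90% an ETS match. The same letters occurred in 45.0%, 34.6%, 7.71%, 7.26% and 10.3% of the 35116 promoters in the table. A GC box was present in 4 of the 6 promoters of higher members and in 3 of the 5 of lower members, and a CCAAT box in 3 and 2. A match describes letters and is not evidence of binding.

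Among the 5 members grouped here under late endosomes and mitochondria, 1 was higher and 2 were lower (15.2% and 15.5% of all genes tested). TBC1D2B, which lies on chromosome 15 and acts on RAB22A, was the member that fell furthest. It had 21.9, 23.0 and 24.7 CPM in si_NC and 15.4, 15.7 and 14.5 CPM in si_GRB2. The highest si_GRB2 library was well under the lowest si_NC library, and the log2 fold change was -0.61 (SE 0.06, adjusted p = 1.91e-06, edgeR), with 3.09% of all genes tested below it. Its paralog TBC1D2, a RAB7 GAP also called Armus, had 21.6, 24.3 and 23.1 CPM in si_NC and 26.4, 25.5 and 24.2 CPM in si_GRB2. Here the groups overlapped and the test was not passed (log2 fold change 0.14, SE 0.06, adjusted p = 0.0750, edgeR).

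TBC1D5, which binds the retromer coat and acts on RAB7, had 18.5, 14.9 and 17.4 CPM in si_NC and 14.5, 14.3 and 13.2 CPM in si_GRB2. The lowest si_NC library was only just above the highest si_GRB2 library, with a log2 fold change of -0.28 (SE 0.08, adjusted p = 0.0145, edgeR). The call was lost with si_NC replicate 1 left out (-0.21) or si_GRB2 replicate 3 left out (-0.24). TBC1D5 shares 211 exonic bases with SATB1 on the same strand. TBC1D17 had 36.0, 34.8 and 40.0 CPM in si_NC and 42.8, 41.8 and 42.0 CPM in si_GRB2. All si_GRB2 values were above si_NC, with replicate 3 of si_NC the closest (log2 fold change 0.19, SE 0.05, adjusted p = 0.00816, edgeR), and the call was lost without si_NC replicate 2 (0.15). TBC1D15, the RAB7 GAP of mitochondria and paralog of TBC1D17, was at -0.07 and did not pass.

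Of the 6 GAPs of autophagosomes and recycling endosomes, 3 were higher and 3 did not pass, where 15.2% of all genes tested were higher. EVI5, which interacts with RAB11, had 13.2, 15.5 and 14.2 CPM in si_NC and 16.1, 17.7 and 18.3 CPM in si_GRB2. EVI5L, its paralog, had 8.70, 9.42 and 8.73 CPM in si_NC and 10.5, 11.7 and 10.7 CPM in si_GRB2. Neither gene overlapped between groups, and both had a log2 fold change of 0.29, with adjusted p = 0.00777 for EVI5 (SE 0.07) and 0.0162 for EVI5L (SE 0.09, edgeR). The call of EVI5L was lost without si_NC replicate 1 (0.26) or si_GRB2 replicate 2 (0.24). TBC1D16, a RAB4A GAP that affects receptor recycling, had 62.9, 60.1 and 65.0 CPM in si_NC and 73.6, 73.4 and 71.3 CPM in si_GRB2. The groups were well apart for its size of change (log2 fold change 0.21, SE 0.04, adjusted p = 0.000533, edgeR). TBC1D12 (0.15), TBC1D14 (0.03) and TBC1D25 (-0.09), the last a RAB33B GAP, did not pass.

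The 4 tested members of the RAB35 pathway divided between both directions, with 1 higher, 1 lower and 2 that did not pass (15.2% and 15.5% of all genes tested were higher and lower). TBC1D10B had 56.8, 53.6 and 57.1 CPM in si_NC and 67.7, 65.2 and 62.9 CPM in si_GRB2. It did not overlap between groups (log2 fold change 0.22, SE 0.04, adjusted p = 0.000659, edgeR). Its paralog TBC1D10A, also called EPI64, had 13.5, 10.9 and 12.2 CPM in si_NC and 9.74, 10.6 and 10.2 CPM in si_GRB2. The groups nearly touched, and the log2 fold change of -0.26 (SE 0.09, adjusted p = 0.0339, edgeR) lost its call without si_NC replicate 1 (-0.19) or any 1 of the si_GRB2 libraries (-0.29 to -0.23). TBC1D10A also shares 10.8% of its exonic bases with another protein-coding gene on the same strand, which had 69.0% as many reads. TBC1D13 was at -0.07 and TBC1D24, which pairs its TBC domain with a TLDc domain, at 0.05. TBC1D10C had 18 reads and was not tested.

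TBC1D20, an endoplasmic reticulum protein that acts on RAB1 and RAB18, had the smallest SE of the family. It had 106.9, 107.3 and 106.5 CPM in si_NC and 119.5, 119.3 and 122.6 CPM in si_GRB2. The replicates lay within a few CPM of each other, and the log2 fold change was 0.17 (SE 0.03, adjusted p = 0.000476, edgeR). The other 3 Golgi members, TBC1D22A, TBC1D22B and TBC1D23, lay between -0.08 and 0.06 and did not pass. TBC1D1, one of the pair of AKT substrates that control glucose transporter traffic through RAB10, was the only 1 of the 4 members with phosphotyrosine-binding domains that passed. It had 28.2, 27.7 and 29.7 CPM in si_NC and 23.3, 23.2 and 22.8 CPM in si_GRB2. The groups were clearly separate, with a log2 fold change of -0.30 (SE 0.05, adjusted p = 0.000213, edgeR). TBC1D4, the other AKT substrate, had the same sign and no overlap but missed the threshold (log2 fold change -0.16, SE 0.06, adjusted p = 0.0546, edgeR). RABGAP1 (-0.03) and RABGAP1L (0.03) stayed near 0.

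None of the remaining tested members passed in edgeR or DESeq2, although SGSM2 and TBC1D19 had unadjusted p-values of 0.0277 and 0.0368 in edgeR. TBC1D7, a subunit of the TSC complex that restrains mTORC1, was at -0.05, and TBCK, linked to the same pathway, at 0.11. TBC1D30 (-0.03), TBC1D31 (-0.06) and TBC1D32 (0.18), which serve cilia and centrioles, and SGSM2 (0.16, adjusted p = 0.0803, edgeR) did not pass either. Some of these were measured tightly and others were not. TBC1D19 was at -0.57 on 143 reads over 6 libraries (SE 0.25) and SGSM3 at 0.31 on 133 reads (SE 0.27), so a change of their size was not detectable at this depth. SGSM3 is also uncertain because 62.4% of its exonic bases lie in another gene, which had 6711 reads. Among the 22 members that did not pass, 13 had an absolute log2 fold change under 0.1, and 4 (TBC1D3L, TBC1D32, TBC1D4 and TBC1D19) did not overlap between groups.

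The primate-specific TBC1D3 copies are nearly identical to each other, so unique alignment can lose or split their reads. The table holds 10 of them. TBC1D3L had 446 reads and a log2 fold change of 0.32 (SE 0.17, adjusted p = 0.162, edgeR), and the other 9 had 42 reads together and were not tested. TBC1D26 and TBC1D28 had 2 reads each and SGSM1 had 39.

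Levels of different genes were compared in the authors' FPKM, which are per length. TBC1D20 and TBC1D31 had the highest levels and changed places between the groups. In si_NC, TBC1D31 (9.35 ± 0.311 FPKM, SD, n = 3) was above TBC1D20 (8.78 ± 0.294 FPKM), and in si_GRB2, TBC1D20 (10.2 ± 0.354 FPKM) was above TBC1D31 (9.24 ± 0.748 FPKM). TBC1D9B and TBC1D10B came next, with means over 6 libraries of 8.02 and 7.14 FPKM, although in si_NC TBC1D13 had the same mean as TBC1D10B (6.48 FPKM). Of the 49 members, 28 averaged at least 1 FPKM and 7 at least 5 FPKM. TBC1D9 had 3.47, 3.34 and 3.09 FPKM in si_NC and 4.79, 5.45 and 5.71 FPKM in si_GRB2. It thus went from position 15 of the 36 tested members in si_NC (3.30 ± 0.193 FPKM, SD, n = 3) to position 8 in si_GRB2 (5.32 ± 0.474 FPKM). In si_NC its range was within that of TBC1D25 (3.23 ± 0.363 FPKM), the next below. In si_GRB2 its range took in that of TBC1D16 (5.20 ± 0.142 FPKM), so that these neighbours did not differ beyond their spread. TBC1D2B went from position 22 to position 26 (1.91 ± 0.182 and 1.29 ± 0.0625 FPKM). TBC1D8B was low in both groups, at 0.507 ± 0.0493 and 0.737 ± 0.0850 FPKM.

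**Figure D4:**
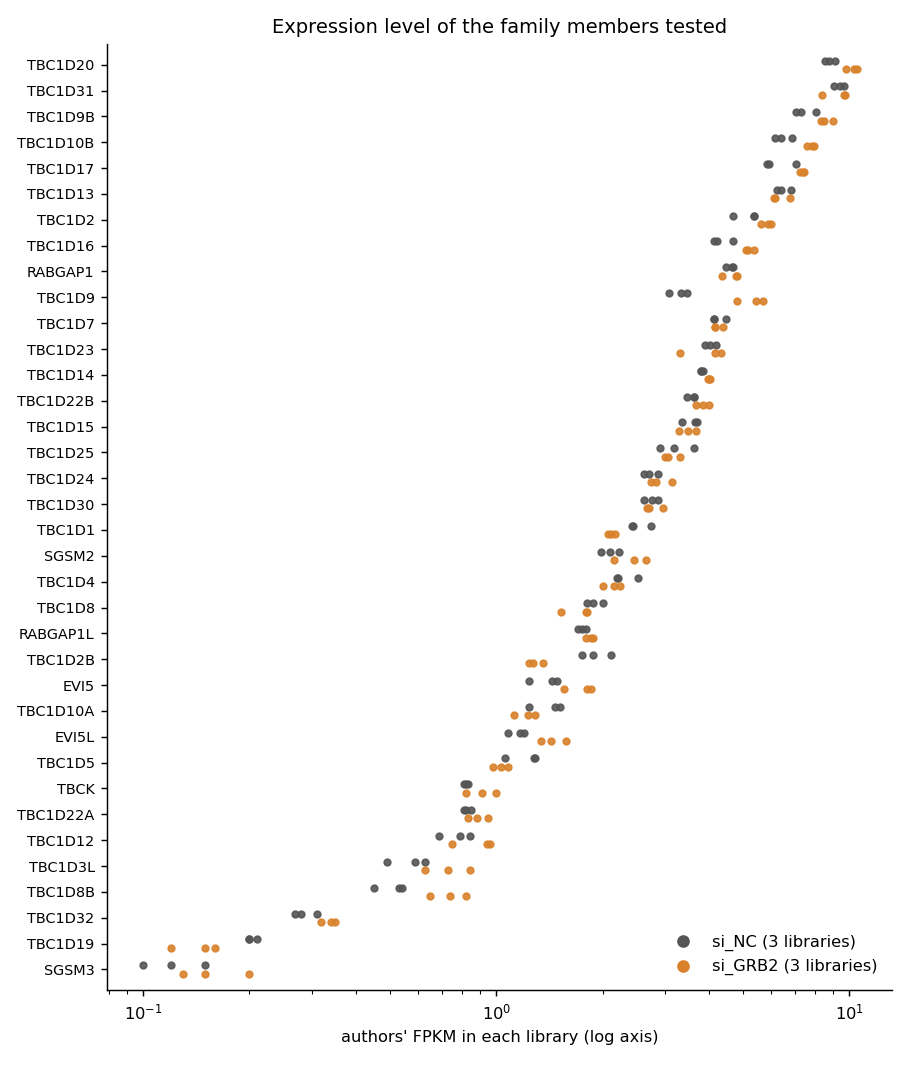
FPKM of each library on a log axis for the 36 tested members, ordered by mean level from TBC1D20 (9.50 FPKM) to SGSM3 (0.142 FPKM). The si_GRB2 points of TBC1D9 lie above its si_NC points and those of TBC1D2B lie under them, while for most members the groups sit close together.

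The summed CPM of the family was 1075 ± 8.23 in si_NC and 1122 ± 14.8 in si_GRB2 (SD, n = 3 each), 4.42% higher. Without TBC1D9 the sums were 1051 ± 9.68 and 1085 ± 14.7 CPM, 3.24% higher. TBC1D9 made up 2.24% ± 0.220 of the family's CPM in si_NC and 3.34% ± 0.221 in si_GRB2. These sums are dominated by the abundant members and describe reads, not activity.

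Some properties that the rule did not use also differed among members. The median GC content of the longest transcript was 53.7% for the higher members, 52.4% for the lower ones and 46.5% for those that did not pass, beside 48.5% over all genes tested. With a smooth GC trend removed from each library, 12 of the 14 members that passed did so again, and with a length trend removed, all 14. Members outside the 14 passed too. In all, 11 were higher and 3 lower without the GC trend, and 9 higher and 6 lower without the length trend. Of the 14, 10 share exonic bases with another gene of the count table, 6 of them with a gene that had at least 5% as many reads. Among the 14, 2 share at least 5% of their exonic bases. TBC1D9, TBC1D8B, EVI5L and TBC1D1 share none. The libraries kept strand, but whether the counting used it is not given in the sources used here, and the part of shared reads in the other calls was not tested.

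The partners of the family in the RAB cycle moved in both directions. Of the 24 tested RABs on which members act, 11 were higher (45.8%) and 3 lower (12.5%), with a median log2 fold change of 0.08. The background was 15.2% and 15.5% of all genes tested, and 17.9% and 18.0% of protein-coding genes. The lower RABs were RAB35, RAB7A and RAB11B. RAB35, the substrate of the TBC1D10 proteins in recycling and a DEG, had 44.3, 45.8 and 45.2 CPM in si_NC and 29.5, 28.6 and 28.5 CPM in si_GRB2. The groups were far apart (log2 fold change -0.64, SE 0.04, adjusted p = 1.38e-08, edgeR). RAB7A, the late endosomal substrate of TBC1D5 and TBC1D15, had 273.6, 282.7 and 269.3 CPM in si_NC and 185.1, 186.3 and 192.9 CPM in si_GRB2. It was lower in every si_GRB2 library (log2 fold change -0.55, SE 0.03, adjusted p = 1.22e-09, edgeR). RAB11B, the recycling RAB tied to TBC1D8B, was at -0.30 (SE 0.04, adjusted p = 7.22e-05, edgeR), whereas RAB11A was at 0.12 (SE 0.03, adjusted p = 0.0153, edgeR). RAB22A, the substrate of TBC1D2B, rose with a log2 fold change of 0.28 (SE 0.03, adjusted p = 1.27e-06, edgeR). RAB33B, the substrate of TBC1D25, had the largest rise of the list, with a log2 fold change of 0.48 (SE 0.11, adjusted p = 0.00236, edgeR). The other higher RABs were RAB2A (0.28), RAB5A (0.28), RAB18 (0.17), RAB14 (0.17), RAB21 (0.16), RAB10 (0.13), RAB1A (0.13) and RAB4A (0.12). Of these, RAB1A and RAB18 are substrates of TBC1D20, RAB4A of TBC1D16 and RAB10 of TBC1D1.

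Of 36 tested RAB GEFs, 8 were higher (22.2%) and 4 lower (11.1%), with a median log2 fold change of 0.07. The background was 15.2% and 15.5% of all genes tested, and 17.9% and 18.0% of protein-coding genes. The higher GEFs were DENND4A (0.53), DENND1C (0.41), RIC1 (0.40), ANKRD27 (0.32), DENND1B (0.31), SBF1 (0.23), DENND5A (0.22) and DENND6A (0.19). The lower ones were RIN1, GAPVD1 (-0.56), DENND2B (-0.38) and DENND2D (-0.24). The GEF with the largest change, RIN1, acts on RAB5 and was a DEG at low level, with 3.92, 4.16 and 4.03 CPM in si_NC and 2.11, 1.78 and 2.33 CPM in si_GRB2. All 3 si_GRB2 values were below si_NC (log2 fold change -0.96, SE 0.15, adjusted p = 0.000170, edgeR). Of the 4 tested RAB GAPs outside the rule, 3 were higher (GRTP1, 0.38, RAB3GAP1, 0.17, and RAB3GAP2, 0.13, with a median of 0.15), but only 1 of the 4 was higher without si_NC replicate 2, si_NC replicate 3 or si_GRB2 replicate 2. Of the 4 TSC complex genes, which include TBC1D7, 1 was higher (TSC2, 0.12, with a median of 0.04), and its call was lost without si_NC replicate 1, si_NC replicate 2 or si_GRB2 replicate 2. Over all related lists without family members, 24 of 75 genes were higher (32.0%) and 9 lower (12.0%). The background was 15.2% and 15.5% of all genes tested, and 17.9% and 18.0% of protein-coding genes.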

How the data were processed

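Poly(A) RNA was sequenced with a strand-specific (dUTP) protocol. Per the study's methods, the authors trimmed reads with FASTX-Toolkit and aligned them to GRCh38 with HISAT2, which the submitters' processing notes also name. They deposited raw counts of uniquely mapped reads per gene, without normalization, and FPKM per gene. The annotation release and the strand setting of the counting are not given in the sources used here. Gene positions, exons and GC content were taken from GENCODE on GRCh38, in which 99.7% of the 30327 identifiers and all 49 members were found.

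The deposited counts were scaled with TMM factors in edgeR 4.0.16 under R 4.3.3. Its filterByExpr left 15801 genes, on which the quasi-likelihood test compared 3 si_GRB2 with 3 si_NC libraries without covariates, with Benjamini-Hochberg adjustment over all genes kept. The study's methods name DESeq2, which was an alternative here (version 1.42.0). The SE was derived from the log2 fold change and the square root of F. The test was checked on simulated counts. Other alternatives were DESeq2 size factors, other filters and thresholds, limma 3.58.1 on log2(FPKM + 1) and log2(FPKM + 0.1), a replicate block, and each library left out. Removal of GC and length trends was added after seeing the data. Values in every library are given for TBC1D9, its 3 paralogs and every member with an adjusted p under 0.05. Values of TBC1D2 and the ratios of other pairs were added after the values were seen. By the rule for the related lists, DEGs (RAB35 and RIN1) and RABs of a named member are named. The other genes of these lists were named after their values were seen. The result of a further related list is not reported here, and its genes count only in the totals over the related lists. Members, roles, lists and rules were chosen with earlier results of these data known. Precision follows depth: between 24810378 and 28532480 reads per library fell on genes, and SEs of members ranged from 0.03 to 0.27.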

Additional observations from a re-analysis of the deposited data

How the results depend on the processing

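TBC1D9 passed under every alternative run, with log2 fold changes from 0.55 to 0.70. Over 223 refits of the 14 members that passed, 176 kept the call and 47 lost it, and none changed direction. TBC1D8 lost it in 13, TBC1D10A in 9, EVI5L in 6 and TBC1D5 in 5 refits, and TBC1D9, TBC1D2B, TBC1D20 and TBC1D10B in none.

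The count of 9 higher members became 3 with limma on log2(FPKM + 1) and 3 on log2(FPKM + 0.1). It was 6 with FPKM averaging at least 1, 11 with the GC trend removed, and 8 to 10 with 1 library left out. The count of 5 lower members became 3 with DESeq2, 1 and 1 in those FPKM fits, 2 with FPKM averaging at least 1, 3 with the GC trend removed, 2 at an adjusted p under 0.01, and 2 to 4 with 1 library left out. It was 6 with at least 10 counts in every library or with the length trend removed. The 2 DEGs became 0 in each of the 3 FPKM fits and 0 to 2 with 1 library left out. With FPKM averaging at least 1, both kept an adjusted p under 0.01 (limma) and missed only the fold limit. Their log2 fold changes there were 0.55 for TBC1D9 and -0.35 for TBC1D2B. In the related lists, 24 higher became 10 and 10, and 9 lower became 4 and 4, in the first 2 FPKM fits, and 17 to 23 and 9 to 10 with 1 library left out. Of the 14 members, DESeq2 shared 11 and the FPKM fits 4, 4 and 8. The last of these fits did not include TBC1D8B, which averaged 0.622 FPKM. The cause of these changes was not tested.

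With the replicate number as a block, 10 members were higher and 4 lower, and TBC1D8 was lost (adjusted p = 0.0538, edgeR). Same-numbered libraries deviated together with correlations of 0.232, -0.0948 and 0.0804, and not every library correlated best with its own number. The labels give only a replicate number, and 3 libraries a group are too few for these correlations to decide whether libraries were paired. Depth limits the members with few reads: the 13 untested ones, TBC1D19 and SGSM3.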
